A study of Homo sapiens with 9 samples.

Results

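Integrins, the kindlins and talins that switch them on, and the tetraspanins that organise them in the membrane were described in an Ewing sarcoma cell line and in 3 derived lines that tolerate agents blocking the IGF-1 receptor. The set held 42 genes chosen by name: 22 integrin subunits, 3 kindlins, 2 talins and 15 tetraspanins. Of these, 41 of the 19775 genes on the arrays had a probe set carrying that gene's symbol alone, and each gene was read by the one with the highest mean over 9 arrays. ITGB6 was read only by probe sets that carry a second symbol and was left out. Levels are log2 values, so a difference of 1 is a 2-fold difference.

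An integrin is a pair of one alpha and one beta subunit that spans the membrane and holds the cell to matrix proteins or to other cells. Talins and kindlins bind the tail of the beta subunit inside the cell and bring the receptor into its active form. Tetraspanins are small proteins with 4 membrane-spanning segments that gather integrins, proteases and receptors into membrane patches. Integrin adhesion and the IGF-1 receptor both feed focal adhesion kinase and the AKT and ERK pathways.

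NVP-AEW541, which blocks the kinase of the receptor, was used to derive TC/AEW, in doses that reached 5 µM. AVE1642, an antibody to the receptor, was used for TC/AVE and reached 10 µg/ml. TC/CP was derived with figitumumab, a second such antibody, for which no final dose is given in the sources used here. Selection lasted at least 6 months, and the reference was the parental line TC-71. All 4 lines grew in Iscove medium with fetal bovine serum. Each resistant line was a single selected line with 2 technical replicate arrays, averaged into 1 sample. TC-71 had 3 biological replicate samples of 1 array each. Whether the agents were present at harvest, and whether TC-71 was passaged alongside, is not stated in the labels, so resistance and months in culture cannot be told apart.

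The array names place TC/AEW, TC/AVE and TC-71 sample 2 in one set of arrays, TC/CP and TC-71 sample 3 in another, and TC-71 sample 1 in one of its own. Over the 14172 genes tested, the 2 arrays of a line correlated at 0.996 to 0.998, and TC-71 samples at 0.963 (1 and 2), 0.979 (1 and 3) and 0.983 (2 and 3). The gap between the 3′ and 5′ probe sets of ACTB, a measure of RNA integrity, was 0.27 to 0.38 in TC/AEW and TC/AVE, 0.86 and 0.88 in TC/CP, and 0.54, 0.32 and 0.73 in TC-71 samples 1, 2 and 3. TC/CP and TC-71 sample 3, of 1 array set, had the wider gaps. The Ewing sarcoma marker CD99 read 12.95, 13.00 and 12.93 in TC/AEW, in TC/AVE and in TC/CP, against 12.83 ± 0.01 in TC-71 (SD, n = 3), and the mean of 6 Ewing markers lay between 10.99 and 11.13 on the arrays of the lines and between 10.77 and 11.14 on those of TC-71. In TC/CP they went both ways: NKX2-2 (-0.48), STEAP1 (-0.43) and PRKCB (-0.34) lay below every TC-71 array, and FLI1 (0.71) and CCND1 (0.73) above. Of 6 blood and immune markers, 3 read below 5 on every array, among them the leukocyte marker PTPRC (CD45). The other 3, CORO1A, HBB and CD3E, reached 6.60, 6.13 and 5.06 on their highest arrays. The list's mean was 4.75 to 4.99 in the lines and 4.89 to 4.94 in TC-71. Of 5 fibroblast markers, COL1A2 read below 5 on every array, and the list's mean was 5.87 to 6.92 in the lines and 5.57 to 6.23 in TC-71. LUM read 8.36 in TC/AEW, 3.78 in TC/AVE and 5.38 in TC/CP, against 3.55, 6.51 and 5.61 in the TC-71 samples. DCN read 8.20, 8.55 and 6.71 in the lines, against 7.54 ± 0.59, and COL1A1 7.87, 7.59 and 9.04, against 7.54 ± 0.27. These 3 thus differed between the lines in different ways, and PDGFRA lay within 0.23 of TC-71 in each. The part of these differences in the results below was not tested. Of 5 epithelial markers, 3 read below 5 on every array, as did 1 of 4 endothelial markers.

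The test took genes with a log2 level of 5 or more on at least 2 of the 9 arrays, and a level under 5 is taken as near background. This kept 37 of the 41 genes. CD9, TSPAN7 and TSPAN8 passed only through a line in which they were high, so that a difference was built into their selection. Not tested were the laminin receptor subunits ITGA3 and ITGA6, the tenascin receptor subunit ITGA9, and ITGB8, a partner of ITGAV. Their levels stayed below 5 on all 9 arrays, with TC-71 means of 4.58, 4.84, 4.46 and 4.05.

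**Figure D1:**
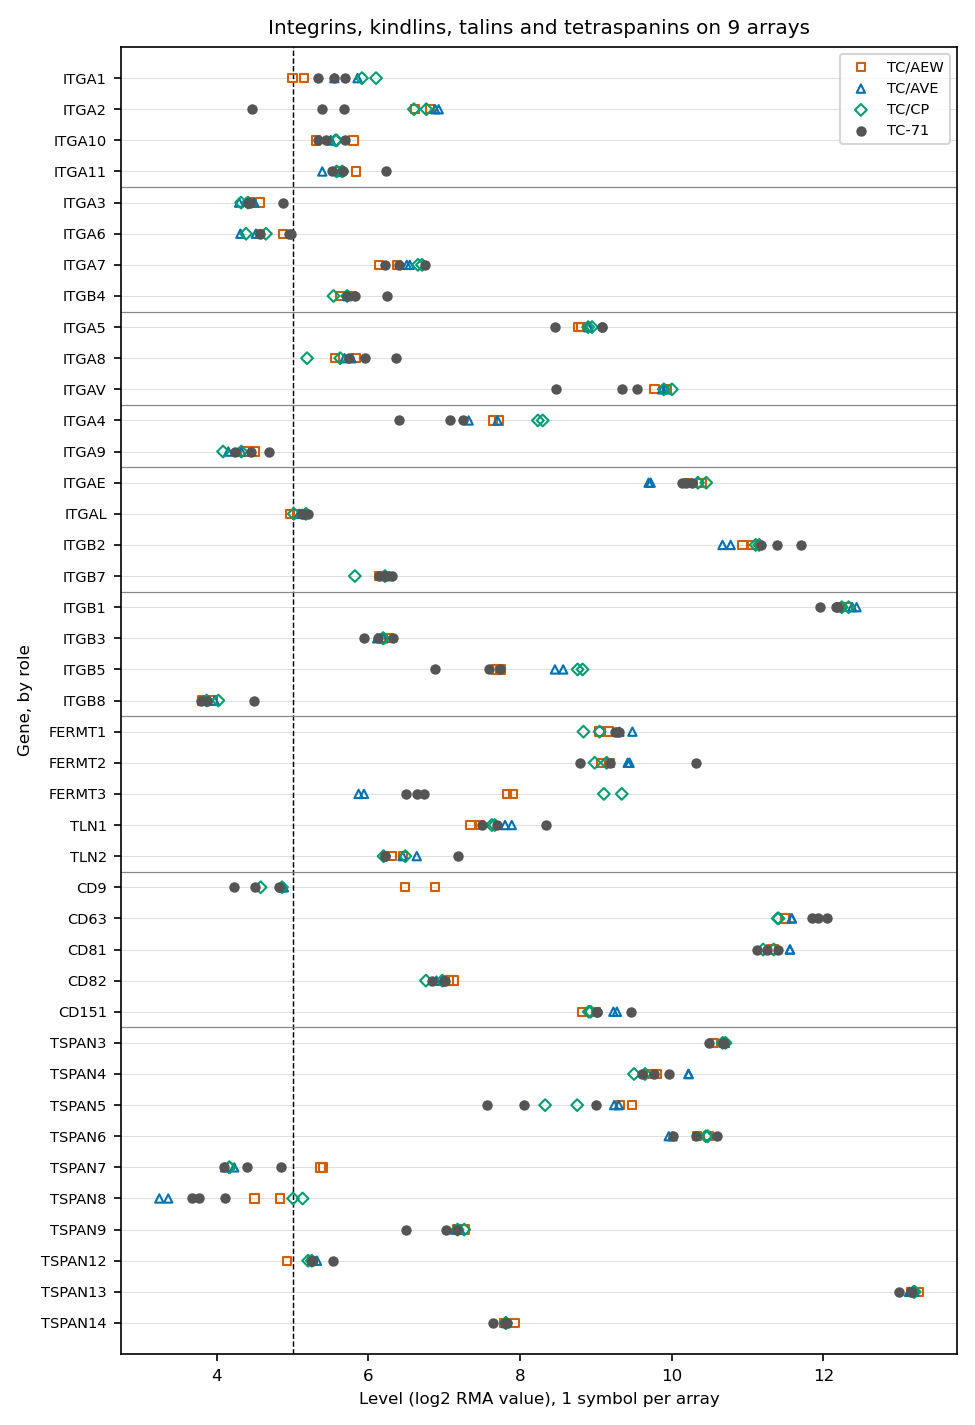
Level (log2 RMA value) of each of the 41 genes on every array, by role, with lines between the role groups. Open symbols are the 2 technical replicate arrays of each resistant line, filled circles the 3 TC-71 samples, and the dashed line marks 5. Of the 41, FERMT3 is the gene whose lines lie furthest apart, from 5.91 in TC/AVE to 9.22 in TC/CP. Signals of different genes come from different probe sets and are not comparable as amounts.

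Each line was set against TC-71, the 3 lines as a group were set against TC-71 (the lines in common), TC/AEW was set against the mean of both antibody-selected lines, and TC/AVE against TC/CP. With limma, none of the 37 genes passed an adjusted p of 0.05 (Benjamini-Hochberg over all 14172 genes) in any of the 6 comparisons. That threshold was passed by 0.0212% of all genes in the lines in common and by 0% in the other 5 comparisons. At an unadjusted p under 0.05 there were 6 of the 37 in the lines in common (8.39% of all genes), 5 in TC/AEW (3.52%), 3 in TC/AVE (7.23%) and 5 in TC/CP (4.93%). Between lines there were 3 where TC/AEW was set against both antibody-selected lines (1.81%) and 3 where TC/AVE was set against TC/CP (5.78%). CD9 and TSPAN7 stand in the counts of TC/AEW, and TSPAN8 in those of TC/CP, but each was tested only because it was high in that line. TSPAN8 also stands in the count of TC/AEW against TC-71. Without these 3 genes the counts of the other 34 were 2 in TC/AEW, 3 in TC/AVE, 4 in TC/CP, 1 in TC/AEW against both antibody-selected lines and 2 in TC/AVE against TC/CP. When all 9 arrays entered with the line as a random block, 1 of the 37 was called in the lines in common. It was the collagen receptor subunit ITGA2 (adjusted p = 0.0251 by limma). That fit, which enters the technical replicate arrays separately, called 68 of all 14172 genes, against 3 in the main fit. The single-line comparisons rest on the spread of TC-71 and assume that the lone line varies like it. The p-values of these comparisons, and of those between lines, measure only that spread, moderated by the variances of all genes tested. For the lines in common the p-values also take in the spread between the 3 lines.

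Differences of at least 1 from TC-71 were upward, which for CD9 and TSPAN8 was built in by the filter. In TC/AEW 4 of the 37 were higher by at least 1 on the log2 scale (1.75% of all genes), in TC/AVE 3 (1.96%) and in TC/CP 5 (2.41%). None was lower by as much in any line, where 0.466%, 1.72% and 0.776% of all genes were, or 2.22%, 3.68% and 3.19% in either direction. With so few lower among all genes, nothing is read from the lack of lower ones here. The higher genes were ITGA2, FERMT3, CD9 and TSPAN5 in TC/AEW, ITGA2, ITGB5 and TSPAN5 in TC/AVE, and ITGA2, ITGA4, ITGB5, FERMT3 and TSPAN8 in TC/CP. Without CD9 and TSPAN8, each tested only because it was high in the line counted, the counts were 3 in TC/AEW and 4 in TC/CP. In all, 7 genes, CD9 and TSPAN8 among them, were at least 1 apart in some line (6.6% of all genes). That count was not redone without them, so nothing is read from it. The median absolute difference of the 37 genes from TC-71 was 0.22 in TC/AEW, 0.27 in TC/AVE and 0.20 in TC/CP, against 0.17, 0.20 and 0.19 over all genes. In the lines in common it was 0.13, against 0.15 over all genes. Without TC-71 sample 1 the TC/AVE count was 1. That sample was the lowest of TC-71 in 16 of the 37 genes and the highest in 16. In the lines in common, ITGA2 and FERMT3 were higher by at least 1 (1.09% of all genes) and none was lower (0.494%). This count of 2 in either direction (1.58%) was 5 without TC-71 sample 2 and 5 without the TC/AVE line. ITGA2 alone was higher by at least 1 in each line taken singly (0.339% of all genes), and none was lower in each (0.169%).

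Set against both antibody-selected lines, TC/AEW had 2 genes higher by at least 1, CD9 and TSPAN7 (0.981% of all genes), and 0 lower (0.303%, or 1.28% in either direction). Both entered the test only through TC/AEW, so nothing is read from this count, and without them it was 0. Set against TC/CP, TC/AVE had 0 higher (1.49%) and 2 lower, FERMT3 and TSPAN8 (3.23%, or 4.72% in either direction). Without TSPAN8, which entered through TC/CP, it was FERMT3 alone. All comparisons with TC-71 share its 3 samples, so the lines are given side by side.

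**Figure D2:**
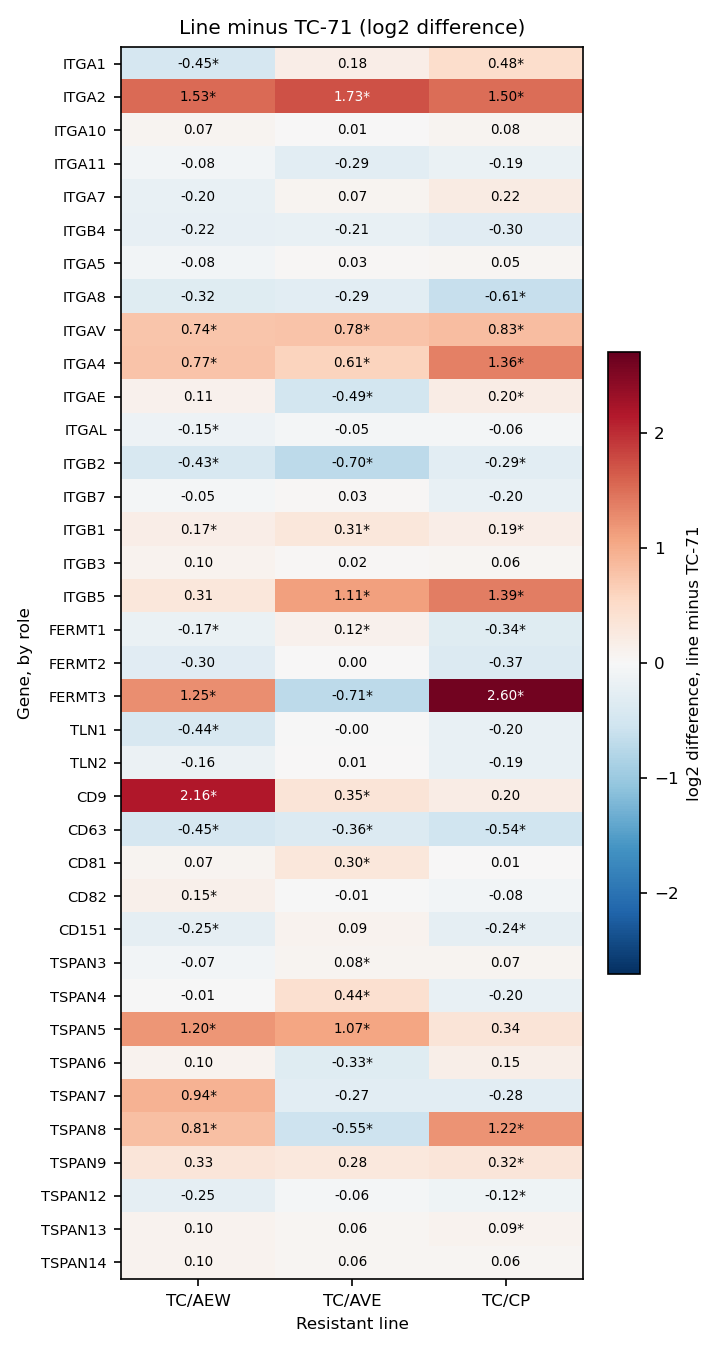
Log2 difference of each line from the TC-71 mean for the 37 tested genes, by role, with red for higher and blue for lower. A star marks lines whose 2 arrays both lay beyond all 3 TC-71 arrays. ITGA2 was 1.53, 1.73 and 1.5 higher in TC/AEW, in TC/AVE and in TC/CP, and FERMT3 differed in direction between TC/AVE (-0.71) and TC/CP (2.60).

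In 4 genes every array of all 3 lines lay above every TC-71 array: ITGA2, ITGAV, ITGA4 and ITGB1. That is 10.8% of the 37, where 5.2% of all genes did so. All 4 are integrin subunits, as is much of the set, and ITGB1 can pair with each of the other 3. Whether they change as pairs was not tested, and for ITGB1 the direction in TC/CP turned on the probe set. Every array lay below TC-71 in 2 genes, ITGB2 and CD63, which is 5.41% of the 37, where 4.33% of all genes did so (9.53% in either direction). Taken singly, TC/AEW had 10 genes above and 7 below (15.4% and 14.3% of all genes, 29.8% in either direction). TC/AVE had 11 above and 6 below (19.6% and 19.8%, 39.4% in either direction). TC/CP had 11 above and 6 below (21.2% and 17%, 38.2% in either direction). In 10 genes, 27% of the 37, no line lay clear of TC-71, where this held for 37.5% of all genes. In 5 genes, 13.5%, one line lay above and another below all TC-71 arrays, where 7.85% of all genes did so. The 10 above in TC/AEW include CD9 and TSPAN7, which the filter let in only through that line. TSPAN8, let in only through TC/CP, is among the 11 above there, the 10 in TC/AEW and these 5. The counts were not redone without the 3 genes, so nothing is read from those that hold them.

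ITGA2 encodes the alpha 2 subunit of the collagen and laminin receptor of epithelial cells and platelets. It read 6.61 and 6.81 on the TC/AEW arrays, 6.93 and 6.88 on the TC/AVE arrays and 6.76 and 6.60 on the TC/CP arrays, against 4.47, 5.67 and 5.39 in TC-71 samples 1, 2 and 3. The 3 lines lay close together and all stood clear of TC-71, whose sample 1 was near background. The difference was 1.59 ± 0.30 in the lines in common (SE, 3.01-fold, adjusted p = 0.233 by limma, unadjusted p = 0.00108). Against the TC-71 sample of the same array set it was 1.04 in TC/AEW, 1.23 in TC/AVE and 1.29 in TC/CP. A second probe set of ITGA2 gave smaller differences in the same direction, 0.69, 0.71 and 0.31 in the 3 lines.

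The other collagen-binding subunits did not follow it. ITGA1 read 5.00 and 5.15 in TC/AEW, 5.55 and 5.86 in TC/AVE and 5.92 and 6.10 in TC/CP, against 5.70, 5.34 and 5.55 in TC-71. TC/AEW thus lay just below TC-71, TC/CP just above it, and TC/AVE overlapped it. ITGA10, found mainly on cartilage cells, differed from TC-71 by no more than 0.08 in any line, and ITGA11, a fibroblast collagen receptor subunit, was between -0.29 and -0.08.

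ITGAV encodes the alpha V subunit, which pairs with several beta subunits to bind the RGD sequence of vitronectin, fibronectin and latent TGF-beta. It read 9.94 and 9.77 in TC/AEW, 9.92 and 9.87 in TC/AVE and 10.00 and 9.90 in TC/CP, against 8.47, 9.54 and 9.34 in TC-71. All 3 lines stood above TC-71, with sample 1 furthest below them. The difference in common was 0.78 ± 0.27 (1.72-fold, adjusted p = 0.498 by limma), and it was 0.46 without TC-71 sample 1. With the array set as a block it was 0.45 ± 0.12 (adjusted p = 0.389).

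ITGB5 encodes the beta subunit that pairs with alpha V as a vitronectin receptor. Its arrays read 7.69 and 7.74 in TC/AEW, 8.46 and 8.57 in TC/AVE and 8.76 and 8.82 in TC/CP, against 6.88, 7.74 and 7.59 in TC-71. Only the 2 antibody-selected lines stood clear of TC-71. The difference from the TC-71 mean was 1.11 ± 0.39 in TC/AVE (2.16-fold) and 1.39 ± 0.39 in TC/CP (2.62-fold), and neither passed the threshold. Against the TC-71 sample of the same array set it was -0.03 in TC/AEW, 0.77 in TC/AVE and 1.20 in TC/CP. The difference of TC/AEW from the mean of the antibody-selected lines was -0.94 ± 0.42 (unadjusted p = 0.0731, adjusted p = 1.00 by limma). A second well-read ITGB5 probe set gave 0.30, 0.71 and 0.88 in TC/AEW, in TC/AVE and in TC/CP, the same order, and its other 2 probe sets were near background. ITGB3, another partner of alpha V and a subunit of the platelet and osteoclast receptor, stayed within 0.10 of TC-71 in every line.

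Of the other RGD-binding subunits, ITGA5, the fibronectin receptor subunit, read 8.79, 8.90 and 8.92 in TC/AEW, in TC/AVE and in TC/CP, against 8.87 ± 0.36 in TC-71. Its difference in common was 0.00 ± 0.19. ITGA8, a nephronectin receptor subunit, was lower by 0.61 in TC/CP, but it was read by a probe set prone to cross-hybridisation whose sister probe sets were near background.

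ITGA4 encodes the alpha 4 subunit, which binds VCAM1 and fibronectin and is best known on leukocytes and neural crest cells. It read 7.72 and 7.64 in TC/AEW, 7.32 and 7.70 in TC/AVE and 8.30 and 8.24 in TC/CP, against 6.41, 7.24 and 7.07 in TC-71. Every line stood above TC-71 and TC/CP stood highest. The difference was 1.36 ± 0.38 in TC/CP (2.57-fold, adjusted p = 0.777 by limma) and 0.91 ± 0.28 in the lines in common (1.88-fold, adjusted p = 0.446). All 4 probe sets of the gene read alike, with 1.30 to 1.38 in TC/CP. Against the TC-71 sample of the same set the difference was 0.44 in TC/AEW, 0.27 in TC/AVE and 1.20 in TC/CP. With 1 TC-71 sample left out, the difference ranged from 0.66 to 1.08 in the lines in common and from 1.11 to 1.53 in TC/CP.

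ITGB1, the shared beta subunit of the collagen, laminin and fibronectin receptors, read 12.32 and 12.23 in TC/AEW, 12.38 and 12.44 in TC/AVE and 12.33 and 12.24 in TC/CP, against 11.95, 12.16 and 12.19 in TC-71. The groups did not overlap, but the gap was small, 0.22 ± 0.13 (1.17-fold, adjusted p = 0.71 by limma). Of its other 2 well-read probe sets one gave 0.24, 0.42 and 0.11 in the lines and the other 0.23, 0.37 and -0.17, so the direction in TC/CP turned on the probe set.

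The sequence before the start of ITGA2, ITGA4 and ITGAV is shown because these alpha subunits lay above TC-71 in all 3 lines, and that of FERMT3 because its lines lay furthest apart among the 41. Each run is the 250 bases before the outermost annotated start, from RefSeq on GRCh38.p14, plus strand, 5′ to 3′, at chr5:52989102-52989351, chr2:181457136-181457385, chr2:186589806-186590055 and chr11:64206471-64206720. Capitals mark GGAA or its reverse complement TTCC, the core bound by ETS factors, the family to which the Ewing fusion protein EWS-FLI1 belongs.
ITGA2: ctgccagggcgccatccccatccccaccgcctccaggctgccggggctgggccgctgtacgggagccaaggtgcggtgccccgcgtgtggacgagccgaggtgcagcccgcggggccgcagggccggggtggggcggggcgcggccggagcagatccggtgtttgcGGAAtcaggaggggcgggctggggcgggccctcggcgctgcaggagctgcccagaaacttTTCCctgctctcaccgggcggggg
ITGA4: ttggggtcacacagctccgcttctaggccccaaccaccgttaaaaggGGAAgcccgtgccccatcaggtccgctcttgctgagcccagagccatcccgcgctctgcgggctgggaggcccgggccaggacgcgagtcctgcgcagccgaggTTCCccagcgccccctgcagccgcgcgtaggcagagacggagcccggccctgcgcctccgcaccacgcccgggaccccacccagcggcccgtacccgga
ITGAV: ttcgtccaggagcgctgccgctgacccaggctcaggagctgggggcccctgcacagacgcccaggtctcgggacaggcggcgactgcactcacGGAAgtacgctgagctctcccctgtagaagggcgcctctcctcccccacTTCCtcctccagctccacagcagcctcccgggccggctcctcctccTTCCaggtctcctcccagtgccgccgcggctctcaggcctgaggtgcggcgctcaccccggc
FERMT3: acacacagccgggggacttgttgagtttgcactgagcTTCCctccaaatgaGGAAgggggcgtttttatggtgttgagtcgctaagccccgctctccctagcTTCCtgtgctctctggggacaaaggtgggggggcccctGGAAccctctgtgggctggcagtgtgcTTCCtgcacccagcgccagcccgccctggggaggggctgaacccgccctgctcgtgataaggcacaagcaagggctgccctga
The core occurred 2 times in the ITGA2 window, 2 in ITGA4, 3 in ITGAV and 5 in FERMT3. It is common, since 92.7% of the 35116 promoter windows in the RefSeq table held at least 1 on either strand. None of the 4 windows held the tandem GGAAGGAA, which was in 3.06% of all windows. The GC box GGGCGG, on either strand, occurred 4 times in ITGA2, 2 times in FERMT3 and in neither of the other windows, and 42.6% of all windows held it. The AP-1 motif TGANTCA, in 6.57% of all windows, and TATAAA, in 10.7%, were in none of the 4. The ITGA2, ITGA4 and ITGAV windows were rich in CpG, with 26, 25 and 18 sites, against 8 in FERMT3 and a median of 11 over all windows. These matches describe letters only, and the arrays do not show which start is used.

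Kindlin-3 set the lines furthest apart among the 41 genes. FERMT3 encodes the kindlin of blood cells, whose loss in humans causes leukocyte adhesion deficiency with bleeding. It read 7.83 and 7.91 in TC/AEW, 5.87 and 5.94 in TC/AVE and 9.34 and 9.11 in TC/CP, against 6.73, 6.49 and 6.64 in TC-71. The 4 groups did not overlap: TC/CP and TC/AEW stood above TC-71 and TC/AVE below it. The difference was 2.60 ± 0.22 in TC/CP (6.08-fold, adjusted p = 0.262 by limma, unadjusted p = 7.34e-05) and 1.25 ± 0.22 in TC/AEW (2.38-fold, adjusted p = 0.861). In TC/AVE it was -0.71 ± 0.22 (adjusted p = 0.597).

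Between the antibody-selected lines, FERMT3 was lower in TC/AVE than in TC/CP by 3.32 ± 0.27 (9.96-fold, adjusted p = 0.287 by limma, unadjusted p = 6.07e-05). The differences from the TC-71 sample of the same array set were 1.38, -0.58 and 2.59 in TC/AEW, in TC/AVE and in TC/CP. The mean over the lines, 1.05 ± 0.73, describes none of them and was 0.27 without TC/CP and 1.93 without TC/AVE. FERMT3 had 1 probe set, so that no second reading was at hand. In bulk RNA of a line, fewer cells that express a gene and less of its RNA per cell cannot be told apart. Of the 6 blood and immune markers, 3 stayed below 5 on every array, PTPRC among them. CORO1A read 5.81 to 6.60, HBB 5.74 to 6.13 and CD3E 4.33 to 5.06 over the 9 arrays. Whether blood cells had a part in the FERMT3 levels was not tested.

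The other kindlins and the talins lay closer to TC-71. FERMT1, the epithelial kindlin, read 9.05 and 9.17 in TC/AEW, 9.31 and 9.48 in TC/AVE and 9.05 and 8.84 in TC/CP, against 9.25, 9.28 and 9.30 in TC-71. TC/AVE lay just above the narrow TC-71 range and the other lines just below it. Of its other probe sets, one gave -0.07, 0.08 and -0.17 in TC/AEW, in TC/AVE and in TC/CP, and a weaker one 0.47, 0.38 and -0.95, so the direction in TC/AEW turned on the probe set. FERMT2, the broadly expressed kindlin, varied most in TC-71, with 8.79, 10.31 and 9.18, and the lines at 9.13, 9.43 and 9.06 lay inside that range. Its other probe sets gave -0.51 and -0.73 in TC/CP. TLN1, the main talin, was lower by 0.44 in TC/AEW and within 0.20 of TC-71 in the other lines. TLN2, the muscle and brain talin, differed by at most 0.19, and by at most 0.30 in its second probe set.

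**Figure D3:**
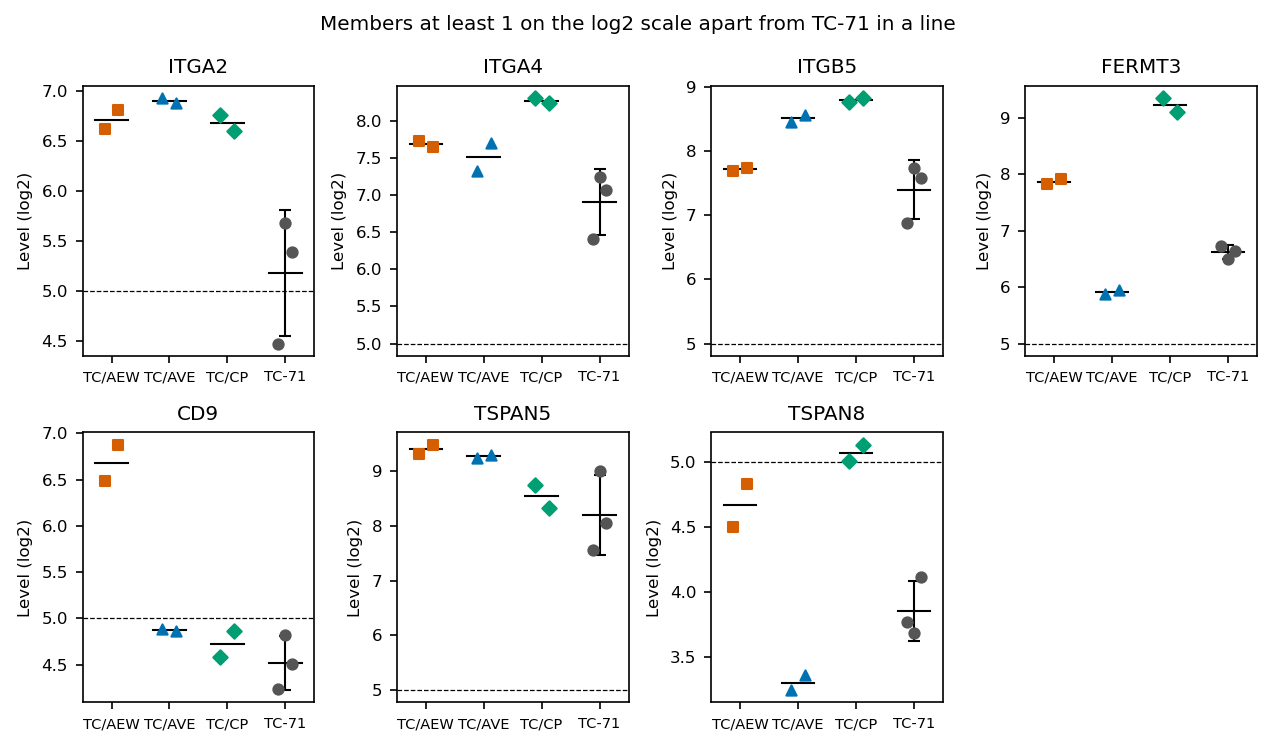
Level (log2) on every array of the 7 genes at least 1 apart from TC-71 in a line. Points are arrays, horizontal bars group means, the error bar the SD of the 3 TC-71 samples, and the dashed line marks 5; each panel has its own axis. FERMT3 sits at 9.34 and 9.11 in TC/CP and at 5.87 and 5.94 in TC/AVE, on either side of TC-71.

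Among the integrins best known from leukocytes, ITGB2 and ITGAE gave strong signals. ITGB2, the beta subunit of the leukocyte receptors, read 10.93 and 11.06 in TC/AEW, 10.67 and 10.78 in TC/AVE and 11.11 and 11.15 in TC/CP, against 11.71, 11.39 and 11.18 in TC-71. All 3 lines lay below TC-71, TC/CP only just. The difference in common was -0.47 ± 0.18 (1.39-fold lower, adjusted p = 0.568 by limma). It was -0.33 without TC-71 sample 1 and -0.32 with the array set as a block. Its other probe sets gave -0.48 and -0.51.

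The alpha subunits that pair with ITGB2 were weak in the same cells. ITGAL, of the receptor LFA-1, read 5.01, 5.11 and 5.10 in TC/AEW, in TC/AVE and in TC/CP, against 5.16 ± 0.04 in TC-71, and ITGAX read below 5 in every group. ITGAM read 5.73, 5.78 and 5.50 in the lines, against 5.57 ± 0.18 in TC-71, and ITGAD 5.47, 5.45 and 5.36, against 5.59 ± 0.17. A probe set's signal depends on its sequence, so these levels do not give the ratio of the subunits.

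ITGAE, the alpha subunit that binds E-cadherin on gut lymphocytes, read 10.21 and 10.39 in TC/AEW, 9.72 and 9.70 in TC/AVE and 10.46 and 10.35 in TC/CP, against 10.19, 10.13 and 10.27 in TC-71. TC/AVE alone lay below TC-71, and TC/CP lay just above it. The difference of TC/AVE from TC/CP was -0.69 ± 0.25 (unadjusted p = 0.0418, adjusted p = 0.852 by limma). Its partner ITGB7 read 6.17, 6.25 and 6.02 in the lines, against 6.22 ± 0.09 in TC-71. Of the tested laminin receptor subunits, ITGA7, found in muscle, stayed within 0.22 of TC-71 and ITGB4, of epithelial hemidesmosomes, within 0.30, in each case with overlap. A second ITGA7 probe set of nearly the same mean level gave -0.69 in TC/AEW, -0.31 in TC/AVE and -0.14 in TC/CP.

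CD9 and CD63 led the tetraspanins with a CD number. CD9, a partner of integrins in cell adhesion and migration and of the egg in fertilisation, read 6.49 and 6.88 in TC/AEW, 4.89 and 4.86 in TC/AVE and 4.58 and 4.86 in TC/CP, against 4.23, 4.82 and 4.51 in TC-71. Only TC/AEW was above background. The difference in TC/AEW was at least 2.16, with no fold given because TC-71 was under 5 and no p because the gene was tested only through that line. Against the mean of the antibody-selected lines it was at least 1.88. The other 2 CD9 probe sets did not show it, with -0.45 and -0.06 in TC/AEW. Their means over the 9 arrays were under 5, at 4.85 and 3.63. The stronger of them read 5.14 in TC-71, and was also lower in TC/AVE (-0.41) and in TC/CP (-0.42). Against TC-71 sample 2, of the same array set, the difference was 1.86.

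CD63, a tetraspanin of lysosomes and exosomes, read 11.49 and 11.50 in TC/AEW, 11.58 and 11.58 in TC/AVE and 11.41 and 11.40 in TC/CP, against 12.05, 11.85 and 11.93 in TC-71. All 6 arrays of the lines lay below the 3 of TC-71. The difference in common was -0.45 ± 0.12 (1.36-fold lower, adjusted p = 0.397 by limma, unadjusted p = 0.00868). It ranged from -0.49 to -0.40 when 1 TC-71 sample was left out and was -0.40 with the array set as a block. CD81, the hepatitis C virus receptor, read 11.33, 11.56 and 11.28 in the lines, against 11.26 ± 0.14 in TC-71, and only TC/AVE lay clear of TC-71. CD82, a suppressor of metastasis in mouse models, differed by at most 0.15, though its second probe set gave -0.55 in TC/CP, and CD151, a partner of laminin-binding integrins, by at most 0.25.

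Among the remaining tetraspanins, TSPAN5 stood out in 2 lines. TSPAN5 belongs to the TspanC8 group, which escorts the protease ADAM10 to the cell surface. The gene read 9.32 and 9.48 in TC/AEW, 9.24 and 9.30 in TC/AVE and 8.75 and 8.33 in TC/CP, against 7.56, 9.0 and 8.05 in TC-71. TC/AEW and TC/AVE lay just above the highest TC-71 sample, and TC/CP lay inside the wide TC-71 range. The difference was 1.20 ± 0.57 in TC/AEW (2.29-fold, adjusted p = 1.00 by limma) and 1.07 ± 0.57 in TC/AVE (2.1-fold, adjusted p = 0.797). Against TC-71 sample 2, of the same array set, it was 0.40 and 0.27. Its other probe sets gave 0.71 and 0.36 in TC/AEW. TSPAN14, of the same group, stayed within 0.10 of TC-71, and ADAM10 itself read 9.93, 10.21 and 10.21 in TC/AEW, in TC/AVE and in TC/CP, against 9.75 ± 0.15 in TC-71 (adjusted p = 0.577 in common).

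TSPAN8, a tetraspanin of digestive tract tumours, read 4.50 and 4.83 in TC/AEW, 3.24 and 3.36 in TC/AVE and 5.01 and 5.13 in TC/CP, against 3.77, 3.68 and 4.11 in TC-71. The highest line only just cleared 5, so these readings lie at or near background. The difference in TC/CP, the line that brought the gene into the test, was at least 1.22. TSPAN7, which shapes synapses, read 5.37 and 5.41 in TC/AEW and under 5 on every other array. Its difference in TC/AEW was at least 0.94, again in the line that brought the gene into the test.

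The other tetraspanins stayed closer to TC-71. TSPAN13 and TSPAN3, the ones with the strongest signals, read 13.21 and 10.55 in TC/AEW, 13.16 and 10.70 in TC/AVE, and 13.20 and 10.69 in TC/CP, against 13.11 ± 0.10 and 10.62 ± 0.11 in TC-71. TSPAN4 was higher by 0.44 in TC/AVE, with both arrays above TC-71, and its second probe set gave 0.69 there and -0.67 in TC/CP. TSPAN6 was lower by 0.33 in TC/AVE, with both below. TSPAN9 was 0.28 to 0.33 higher in the lines, clear of TC-71 in TC/CP only, and TSPAN12, a co-receptor in retinal vessel growth, was 0.06 to 0.25 lower in the 3 lines. TSPAN12 lay clear of TC-71 in TC/CP only, and barely, at 5.25 and 5.21 against 5.53, 5.26 and 5.26. Its other probe sets, near background, gave 0.32 and 0.26 in TC/CP.

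**Figure D4:**
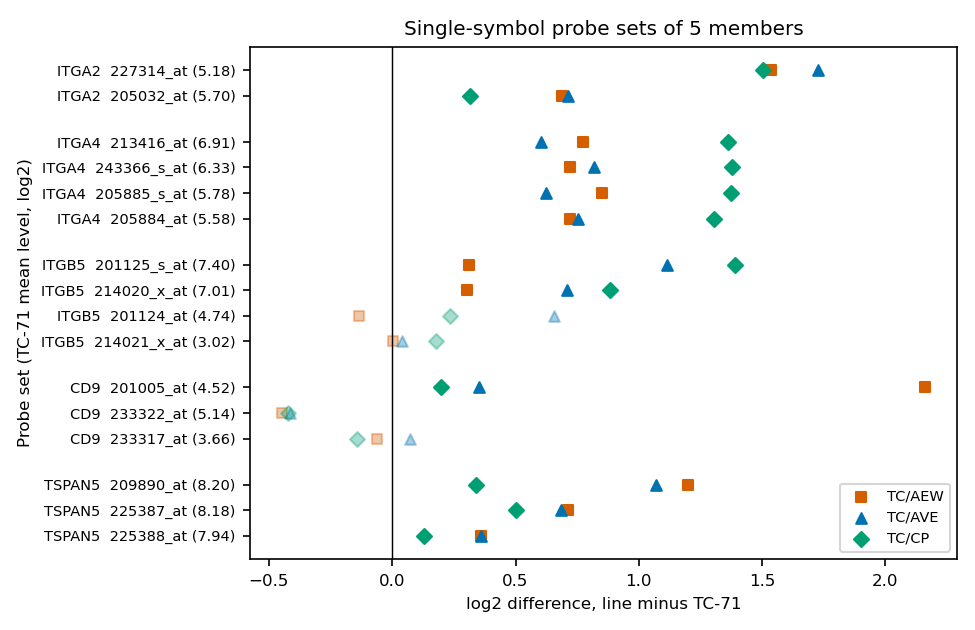
Log2 difference of each line from TC-71 for every single-symbol probe set of 5 genes that have several, with the TC-71 mean level in brackets and faded symbols for probe sets whose mean over the 9 arrays was under 5. The 4 ITGA4 probe sets lie together, while those of ITGA2 and TSPAN5 share direction but not size, and the CD9 difference in TC/AEW (2.16) appears in 1 of 3 probe sets.

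The genes around these receptors were taken from lists of 129 further genes. Among integrin adhesion adaptors 38 of 42 measured genes were tested and 0 passed the threshold in any of the 6 comparisons. At least 1 higher were DAB2 in TC/AEW and TC/AVE and RAP1A in TC/CP, and none was lower by as much in a line (the shares of all genes are those given above). DAB2, an endocytic adaptor for integrins, read 8.23, 8.19 and 7.80 in TC/AEW, in TC/AVE and in TC/CP, against 7.08 ± 0.96 in TC-71. RAP1A, a small GTPase that brings talin to integrins, read 10.61, 10.47 and 11.57, against 10.34 ± 0.22. Tensin TNS1 read 8.35, 8.83 and 8.94, against 9.23 ± 0.59, and the parvin PARVA, which links integrins to actin, 5.92, 5.75 and 6.71, against 5.89 ± 0.53. The lowest adjusted p in the list was 0.52 by limma, and its median difference in common was -0.01, as over all genes.

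Among the integrin ligands of the matrix and cell surface, 28 of 38 measured genes were tested and 0 passed. At least 1 higher were 2 in TC/AEW, 1 in TC/AVE and 1 in TC/CP (1.75%, 1.96% and 2.41% of all genes). At least 1 lower were 0, 3 and 0 (0.466%, 1.72% and 0.776% of all genes). The 3 lower in TC/AVE were EMILIN1, LAMA2 and EDIL3. EMILIN1, a ligand of alpha 4 and alpha 9 integrins, read 7.30, 5.79 and 7.93 in TC/AEW, in TC/AVE and in TC/CP, against 8.28 ± 0.69 in TC-71. LAMA2, the laminin chain of muscle and nerve, read 7.50, 5.72 and 7.56, against 7.74 ± 0.36. EDIL3, an RGD ligand of alpha V integrins, read 9.06, 6.63 and 7.90, against 8.42 ± 0.75. TNC, tenascin-C, read 5.37, 6.24 and 8.16 in TC/AEW, in TC/AVE and in TC/CP, against 5.71 ± 0.59. Between the lines EMILIN1, LAMA2 and EDIL3 were thus weakest in TC/AVE, and TNC strongest in TC/CP. These genes were picked for the largest differences in a line, so this order was partly built in and nothing is read from it. The lowest adjusted p in the list was 0.32, in TC/AVE.

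Of 22 other measured integrins and tetraspanins 17 were tested and 0 passed. TSPAN11 read 7.0, 6.09 and 6.61 in TC/AEW, in TC/AVE and in TC/CP, against 7.66 ± 0.42 in TC-71, with every array of the lines below TC-71 (-1.09 ± 0.29 in common, adjusted p = 0.39 by limma). Over all genes, 4.33% lay below TC-71 on every array of the lines. TSPAN18 read 6.42, 7.0 and 5.87, against 6.03 ± 0.38. The TspanC8 member TSPAN33 read 8.18, 8.0 and 7.49, against 7.51 ± 0.07, and TSPAN31 8.44, 7.64 and 7.57, against 8.19 ± 0.78.

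Of 16 measured tetraspanin partners 12 were tested and 0 passed. CLDN1, a tight junction protein that associates with CD9 and CD81, read 10.40, 9.28 and 9.75 in TC/AEW, in TC/AVE and in TC/CP, against 11.02 ± 0.37 in TC-71, below TC-71 on every array (-1.21 ± 0.31 in common, adjusted p = 0.367 by limma). CD47, which associates with alpha V integrins, read 10.43, 10.24 and 10.40, against 9.75 ± 0.35, and the complement regulator CD46, which associates with beta 1 integrins, 10.40, 10.32 and 10.68, against 10.01 ± 0.13, both above TC-71 on every array. Of all genes, 5.2% lay above and 4.33% below on every array. BSG, also known as CD147, read 12.03, 12.27 and 11.08, against 11.73 ± 0.39, with TC/AVE above every TC-71 array and TC/CP below. One line above and another below was found in 7.85% of all genes. The lowest adjusted p among the partners was 0.367.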

How the data were processed

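The 9 Affymetrix HG-U133 Plus 2 arrays held RNA of TC-71 and 3 resistant lines. The submitters' processing notes name affy and RMA for the deposited log2 values of each probe set; no version of either is recorded there. TC-71 had 3 samples. The 2 technical replicate arrays of each line were averaged, which gave 6 samples. Of 54675 probe sets, 62 controls were left out, and 41091 of the other 54613 carried 1 gene symbol. Each gene was read by its single-symbol probe set with the highest mean, which gave 19775 genes, of which 14172 had at least 2 arrays at 5 or more. Differences were tested two-sided with limma 3.58.1 in R 4.3.3, in a 2-group fit (4 residual, 3.06 prior degrees of freedom) for the lines in common and a 4-group fit (2 residual, 3.01 prior) for the other comparisons, adjusted by Benjamini-Hochberg over all genes tested, with a threshold of 0.05. Errors of differences are moderated standard errors and those of levels SDs over the 3 TC-71 samples. Scripts were tested on simulated data. The number of arrays limits the precision.

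Given on every array were genes past the threshold, at least 1 apart from TC-71 in a line with a level of at least 5 on 1 side, or among the strongest signals of their role group. Others given on every array, and pathway genes beyond the 4 with the largest difference in a list, were chosen after their values were seen. The members and lists were chosen with earlier results of these data known. Alternatives were other probe set rules, filters, scalings and variance priors, the array set as a block, and leaving out arrays, samples or lines.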

Additional observations from a re-analysis of the deposited data

Results flagged for a closer look

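In 5 of the 37 genes one line lay above and another below all TC-71 arrays, against 7.85% of all genes. FERMT3 read 3.32 higher in TC/CP than in TC/AVE and TSPAN8, near background and tested only through TC/CP, 1.77 higher. ITGAE read 0.69 higher in TC/CP than in TC/AVE. FERMT1 read 0.45 higher in TC/AVE than in TC/CP. For FERMT3, ITGAE and FERMT1 these differences between the antibody-selected lines did not pass by limma (adjusted p = 0.287, 0.852 and 1.00). ITGA1 read 0.93 higher in TC/CP than in TC/AEW, a difference that was not tested.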

How the results depend on the processing

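None of the 37 genes was called under the settings described above, and 1 was called under an alternative: ITGA2 in the lines in common, with all 9 arrays and the line as a random block (1 gene called, adjusted p = 0.0251, against 0.178 to 0.508 under its other alternatives). That fit called 68 of all genes, against 3 without it. It was not run for single lines, where the block coincides with the group. The count of all genes called in common was 11 with the second highest probe set, 6 with the filter at 6 or a variance trend, 5 with centred arrays, 0 with no filter, with the array set as a block or without any 1 TC-71 sample or line, and 2 to 5 without 1 array of a line. The counts of members at least 1 apart were recomputed under alternatives chosen after seeing the data. With the second highest probe set of each gene they were 1 in the lines in common, 1 in TC/AEW, 0 in TC/AVE and 3 in TC/CP. Leaving out 1 array or 1 TC-71 sample gave 2 to 5 in the lines in common, 3 to 5 in TC/AEW, 1 to 3 in TC/AVE and 5 to 6 in TC/CP, and leaving out the TC/AVE line gave 5 in the lines in common. Of 398 recomputed differences of single members, 0 reversed. They belong to 22 results picked in these data for a difference of at least 1 or an unadjusted p under 0.05 by limma. A stable direction was thus partly built in. The CD9 probe set that gave -0.45 in TC/AEW was not among the recomputed values, nor were FERMT1 and ITGB1. No paired analysis was possible because the replicate numbers of the lines mark technical arrays of 1 sample each. Signals under 5 carry only a bound.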
